A study of Mus musculus with 7 samples.

Results

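Fmo1, Fmo2, Fmo4 and Fmo5, which encode flavin-containing monooxygenases, and Ces1d, which encodes a carboxylesterase, were described as a group of 5 genes among the 20927 entries of a count table from mouse left ventricle. The 5 genes were chosen by name with their measured difference between A178D and WT hearts in these same libraries known. Their fold changes, and whether they passed the threshold set for all genes, are therefore a description, and no p-value is given for them. The study made a mouse line with the titin missense variant A178D, which had been found in a family with cardiomyopathy, and asked how the variant acts on the heart. Messenger RNA from the left ventricle was sequenced in 3 WT and 4 homozygous A178D mice, with 1 library per mouse. Both groups are labelled as C57BL/6J. The variant had been made by CRISPR-Cas9 in embryonic stem cells of the C57BL/6N substrain, and the line was then backcrossed onto C57BL/6J. The labels give neither the age nor the sex of these mice. The WT libraries held between 41102868 and 54245530 counts and the A178D libraries between 33080675 and 52345529.

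Flavin-containing monooxygenases sit in the membrane of the endoplasmic reticulum and use bound FAD, NADPH and oxygen to oxidise soft nucleophiles, mostly nitrogen and sulphur atoms of small molecules. They are best known for handling drugs and dietary amines in liver, kidney and lung, and Fmo1 also turns hypotaurine into taurine, an abundant small molecule of heart muscle. Ces1d is a serine hydrolase inside the endoplasmic reticulum that cleaves ester drugs and, in liver and adipose tissue, stored triacylglycerol.

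The tissue label was checked against cell type markers. All 13 cardiomyocyte markers were measured, and Myh6, the main myosin heavy chain of mouse ventricle, was the most abundant of them at 40000 CPM (counts scaled to library size) in WT and 37200 CPM in A178D hearts. Among 7 atrial markers, Bmp10 had no count in any heart, while Myl7 averaged 0.0671 CPM in WT and 0.0438 CPM in A178D hearts, and Sln averaged 0.00 CPM and 0.0248 CPM. The other 4 atrial markers were present, with Nppa at 182 and 451 CPM, Stard10 at 25.3 and 25.8 CPM, Dkk3 at 3.12 and 2.53 CPM and Myl4 at 1.88 and 2.95 CPM. The 4 Y-linked genes Ddx3y, Uty, Kdm5d and Eif2s3y had counts in all 7 hearts, with Ddx3y between 75.2 and 119 CPM. Ttn, which carries the variant, averaged 6660 ± 521 CPM in WT (SD, n = 3) and 5530 ± 1070 CPM in A178D hearts (SD, n = 4), and it was not called different (log2 fold change -0.27, SE 0.12, adjusted p = 0.287 by edgeR).

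Ces1d (ENSMUSG00000056973; chr8:93166068-93197838, minus strand, GRCm38) was measured at 211, 249 and 288 CPM in WT hearts 1, 3 and 4 and at 141, 151, 119 and 136 CPM in A178D hearts 1 to 4. Every A178D heart was below every WT heart, and the highest A178D value was 71.8% of the lowest WT value. The means were 249 ± 38.5 CPM in WT (SD, n = 3) and 137 ± 13.6 CPM in A178D hearts (SD, n = 4), so that the A178D mean was 54.9% of the WT mean. The log2 fold change of A178D over WT was -0.86 (SE 0.10).

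Fmo2, the form best known from lung, had the lowest log2 fold change of the 4 monooxygenases in the main edgeR fit. The gene (ENSMUSG00000040170; chr1:162874317-162898726, minus strand) stood at 46.7, 63.1 and 70.6 CPM in WT hearts 1, 3 and 4 and at 34.9, 31.5, 37.8 and 36.1 CPM in A178D hearts 1 to 4. The groups did not overlap, WT heart 1 was the lowest of its group, and the 4 A178D hearts lay close together. The WT mean was 60.2 ± 12.2 CPM (SD, n = 3) and the A178D mean 35.1 ± 2.67 CPM (SD, n = 4), which was 58.3% of WT. Its log2 fold change was -0.78 (SE 0.12). The rank was not kept in every fit. With replicate number as a block Fmo4 was lower, at -0.88 beside -0.71 for Fmo2. The same was seen without WT heart 3 (-0.85 beside -0.74) and without A178D heart 2 (-0.96 beside -0.73).

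Fmo1 (ENSMUSG00000040181; chr1:162829561-162866610, minus strand), the hypotaurine-oxidising form, was measured at 55.3, 70.4 and 71.2 CPM in WT hearts 1, 3 and 4. The A178D hearts 1 to 4 had 47.5, 45.7, 47.0 and 54.4 CPM. The groups were apart by a narrow gap, since A178D heart 4 reached 98.4% of WT heart 1. The means were 65.6 ± 8.95 CPM in WT (SD, n = 3) and 48.7 ± 3.91 CPM in A178D hearts (SD, n = 4), with a log2 fold change of -0.43 (SE 0.10). WT heart 1 was the lowest of the WT hearts for Ces1d, Fmo2 and Fmo1 alike.

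Fmo5 (ENSMUSG00000028088; chr3:97628804-97655282, plus strand), whose product is known for inserting oxygen next to carbonyl groups, showed a different picture. Its values were 32.1, 29.2 and 32.5 CPM in WT hearts 1, 3 and 4 and 30.1, 27.7, 32.4 and 31.7 CPM in A178D hearts 1 to 4. The groups overlapped almost completely, and the highest values of WT and A178D hearts were nearly equal. The log2 fold change was -0.04 (SE 0.08), and its sign turned with the processing: it was 0.02 with offsets for transcript length and GC content and 0.01 without A178D heart 2.

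Fmo4 (ENSMUSG00000026692; chr1:162793188-162813972, minus strand) was barely detected. It had 34, 10 and 22 counts in WT hearts 1, 3 and 4, which is 0.647, 0.183 and 0.541 CPM, and 12, 31, 11 and 4 counts in A178D hearts 1 to 4, which is 0.297, 0.588, 0.258 and 0.124 CPM. The groups overlapped widely, with the second highest value of all in A178D heart 2. With a mean of 17.7 counts, the log2 fold change of -0.46 had an SE of 0.55, and no difference could be told from the spread between hearts. Leaving out single hearts moved it between -0.96 (without A178D heart 2) and -0.09 (without WT heart 1).

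A gene was tested if 3 or more libraries held 10 or more of its counts, which was so for all 5 genes and for 13894 genes in all. Of these, edgeR called 327 different at a Benjamini-Hochberg adjusted p under 0.05, which is 2.35% of the tested genes. The 145 higher genes were 1.04% and the 182 lower genes were 1.31%. The calls included 3 of the 5 genes, Ces1d, Fmo2 and Fmo1, all lower in A178D hearts. The same 3 genes were lower with no overlap between the groups, as were 1184 genes or 8.52% of those tested, while 1058 genes or 7.61% were higher with no overlap. Since the genes were selected on this same contrast, nothing is read from these counts. The fits that left out 1 heart use the same contrast and are no sign of stability: their log2 fold changes ran from -0.97 to -0.75 for Ces1d and from -0.93 to -0.65 for Fmo2. Fmo1 did not pass the threshold without WT heart 3 (log2 fold change -0.38), WT heart 4 (-0.37), A178D heart 1 (-0.42), A178D heart 2 (-0.40) or A178D heart 3 (-0.42). With all hearts and replicate number as a block, Fmo1 did not pass it either (-0.40). In whole tissue, fewer cells of a type and less RNA per cell cannot be told apart.

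**Figure D1:**
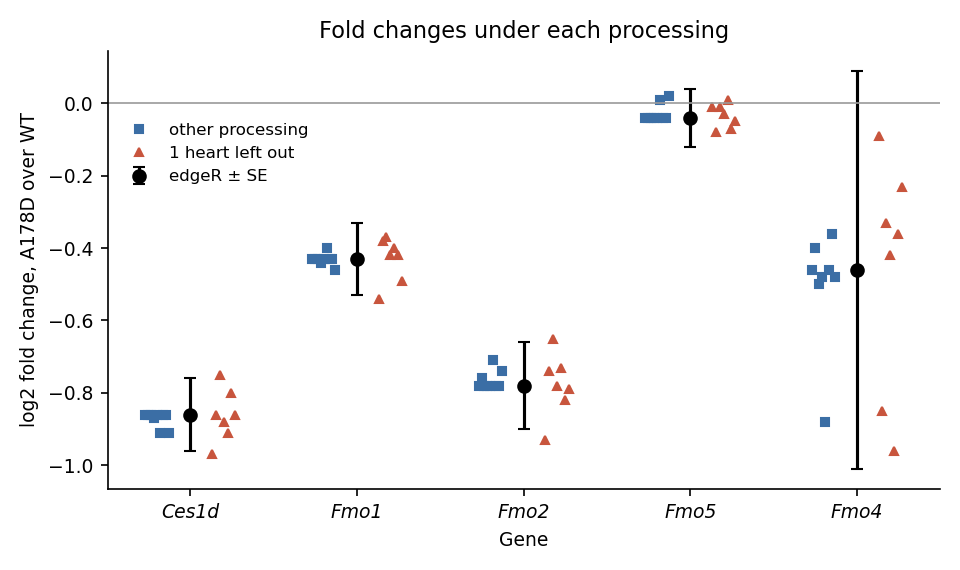
Log2 fold change of A178D over WT hearts (vertical axis) for each of the 5 genes, with the edgeR estimate ± SE as black circles, other ways of processing as blue squares and fits without 1 heart as red triangles. Ces1d, Fmo2 and Fmo1 lie below 0 in every fit, Fmo5 lies on both sides of 0, between -0.08 and 0.02, and the fits of Fmo4 spread from -0.96 to -0.09.

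The spread within a genotype also differed among the genes. The SD of log2 CPM within groups was 0.094 for Fmo5, 0.156 for Fmo1, 0.182 for Ces1d and 0.213 for Fmo2, beside a median of 0.145 over all tested genes. Fmo5 was thus among the steadier genes, and 76.7% of tested genes varied more between hearts of a genotype. For Fmo4 the SD was 0.948, which 1.89% of tested genes exceeded.

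Levels of different genes were compared per kilobase, as CPM divided by the length of the longest coding transcript. On that scale Ces1d stood first in WT hearts at 124 ± 19.2 CPM per kilobase (SD, n = 3), above 96.7% of tested genes. Fmo1 followed at 27.5 ± 3.75, Fmo2 at 14.8 ± 3.01, Fmo5 at 6.01 ± 0.34 and Fmo4 at 0.17 ± 0.0905 CPM per kilobase. No neighbours in this order overlapped in their WT ranges, and the order was the same in A178D hearts, where the means were 68.4, 20.4, 8.63, 5.87 and 0.118 CPM per kilobase. The order of Fmo1 and Fmo2 depended on the length used. Per kilobase of total exon length the WT means were 10.4 for Fmo1, with a range of 8.78 to 11.3, and 10.7 for Fmo2, with a range of 8.33 to 12.6, so these 2 genes overlapped on that scale.

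**Figure D2:**
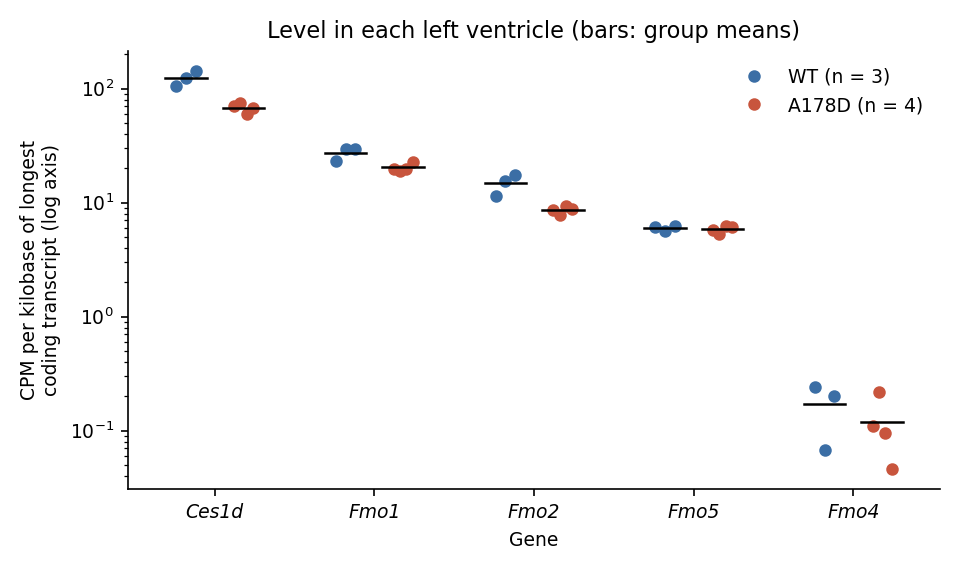
Level of each gene in every heart, as CPM per kilobase of the longest coding transcript on a log axis, with points for hearts and bars for the mean of each genotype. Ces1d, at 105 to 144 in WT and 59.3 to 75.5 in A178D hearts, is the highest of the 5 genes and Fmo4 the lowest.

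Added up per kilobase of longest coding transcript, the 4 monooxygenase messages came to 41.1, 50.7 and 53.7 CPM per kilobase in WT hearts 1, 3 and 4 and to 34.5, 32.5, 35.4 and 37.8 in A178D hearts 1 to 4. The sum was lower in all 4 A178D hearts than in any WT heart. On the same scale Fmo1 made up 55.6 to 58.1% of the sum in WT and 55.6 to 60.3% in A178D hearts. Fmo2 supplied 28.0, 30.6 and 32.4% in WT hearts 1, 3 and 4 but 23.5 to 26.3% in A178D hearts, and Fmo5 supplied 15, 11.1 and 11.6% in WT hearts and 16.1 to 17.7% in A178D hearts. Shares add up to a whole, so lower levels of Fmo1 and Fmo2 raise the share of Fmo5, whose own level was 6.01 CPM per kilobase in WT and 5.87 in A178D hearts. Fmo1 would take a smaller share per kilobase of total exon length, where its WT mean was 10.4 beside 10.7 for Fmo2.

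The mixture can also be read as ratios per kilobase of longest coding transcript. Fmo2 stood at 1.86, 2.76 and 2.78 times the level of Fmo5 in WT hearts 1, 3 and 4. In A178D hearts 1 to 4 the ratio was 1.48, 1.45, 1.49 and 1.46, so it was nearly the same in every A178D heart and lower than in each WT heart. The ratio of Fmo1 to Fmo2 was 2.02, 1.9 and 1.72 in WT hearts and 2.32, 2.47, 2.11 and 2.57 in A178D hearts. Ces1d and Fmo2 kept a ratio that overlapped between the genotypes, at 9.16, 8.01 and 8.27 in WT hearts and 8.22, 9.75, 6.38 and 7.66 in A178D hearts. Another choice of length multiplies a ratio by the same factor in every heart, and per kilobase of total exon length the WT means of Fmo1 and Fmo2 were nearly equal.

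The monooxygenase family has 9 genes in the annotation. Besides the 4 genes above, Fmo6 had 4, 4 and 2 counts in WT hearts 1, 3 and 4 and 4, 10, 3 and 1 counts in A178D hearts 1 to 4. Fmo9, Gm4847 and Gm4846 had no count in any heart, which allows up to 3 counts in a library, or between 0.055 and 0.0926 CPM. These limits cover counting error only, and since most low counts in these libraries are even, a fragment may have been counted more than once, in which case the limits would be higher and the few counts of Fmo4 and Fmo6 would stand for fewer fragments. None of these genes reached the filter, so none was tested.

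Among the 19 carboxylesterase genes, 5 passed the filter, Ces1d included. The other 4 were Ces2g (4.96 CPM in WT and 3.61 CPM in A178D hearts, log2 fold change -0.45, SE 0.19), Ces2e (2.96 and 3.63 CPM, 0.29, SE 0.19), Ces1e (1.15 and 1.02 CPM, -0.16, SE 0.27) and Ces3b (0.252 and 0.16 CPM, -0.61, SE 0.64). None of the 4 was called by edgeR, DESeq2 or limma-voom, and 1 of them, Ces2g, had an unadjusted p under 0.05 by edgeR. Their median log2 fold change was -0.31, beside 0.002 over all tested genes, but with 3 genes left it was -0.11 without WT heart 4, -0.13 with halved counts and -0.16 with 10 or more counts required in every library. Ces1b, Ces1c, Ces1h, Ces2a, Ces2h, Ces3a and Ces4a had no counts, and Ces1a, Ces1f, Ces1g, Ces2b, Ces2c, Ces2f and Ces5a had 28 or fewer counts over the 7 hearts.

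Fmo4, Fmo1 and Fmo2 lie side by side on chromosome 1, all on the minus strand, with 15588 bases between Fmo4 and Fmo1 and 7706 bases between Fmo1 and Fmo2. In counts, not per length, Fmo1 and Fmo2 had 1168 or more in every heart, Fmo4 had 34 or fewer, and Fmo6, which lies 17824 bases beyond Fmo2, had 10 or fewer. On the other side, 52631 bases from Fmo4, Prrc2c averaged 110 ± 6.65 CPM in WT (SD, n = 3) and 88.9 ± 12.5 CPM in A178D hearts (SD, n = 4). It was not called (log2 fold change -0.30, SE 0.10, adjusted p = 0.142).

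Fmo5 lies apart from this cluster, on chromosome 3. Prkab2, a regulatory subunit gene of AMP-activated protein kinase, begins 2910 bases beyond it and was not called (log2 fold change 0.14, SE 0.12, adjusted p = 0.589). On the other side lies Gm43075, which is not in the count table, and then Chd1l, a chromatin remodeller gene, which was not called either (0.03, SE 0.08, adjusted p = 0.869). Ces1d is on chromosome 8 between the pseudogene Gm45910, 11951 bases away, and Ces1e, 3379 bases away, and it overlaps Gm45909 on the same strand. Neither Gm45910 nor Gm45909 is in the count table. Ces1c, beyond the pseudogene, had no counts, and Ces1e was not called (-0.16, SE 0.27, adjusted p = 0.818).

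**Figure D3:**
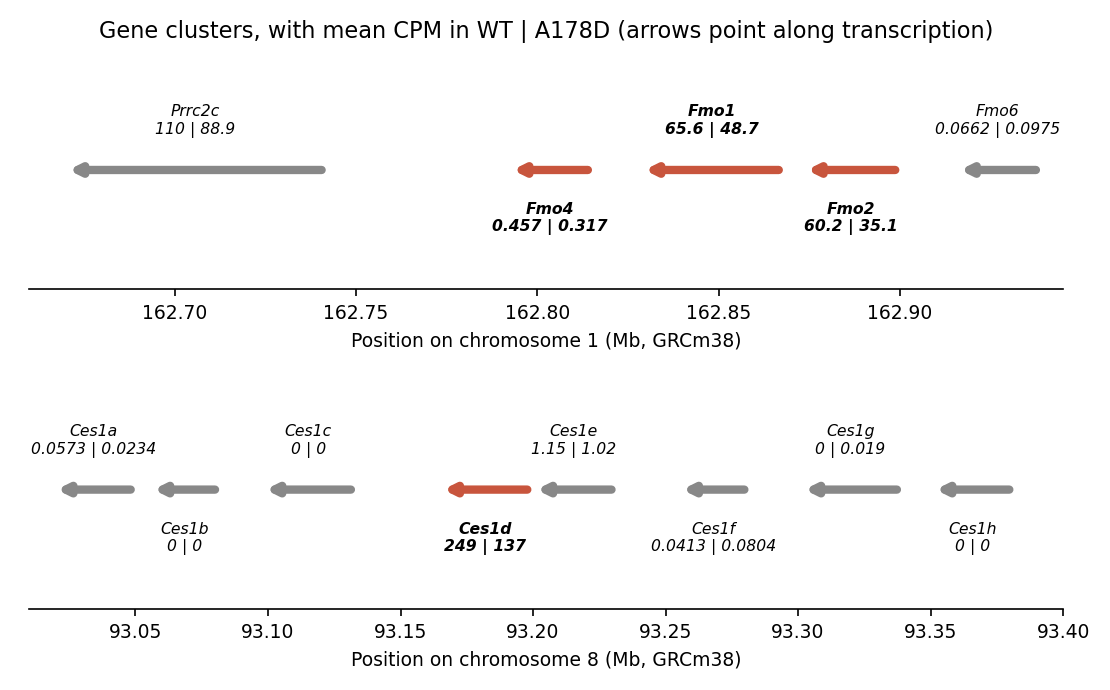
Genes of the monooxygenase cluster on chromosome 1 and of the carboxylesterase cluster on chromosome 8 (GRCm38 positions on the horizontal axis), each drawn from its start to its end with the mean CPM of WT and of A178D hearts beside its name. CPM is not per length, so the pairs compare genotypes within a gene: Ces1d stands at 249 and 137 CPM, Fmo1 at 65.6 and 48.7 CPM, Fmo2 at 60.2 and 35.1 CPM.

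For each of the 5 genes, the 3 tested genes with the most similar course over the 7 hearts were taken from 12212 genes averaging 50 counts or more, by Pearson's r of log2 CPM (n = 7 hearts of both genotypes). They were Ywhae (r = 0.991), Lonrf3 (0.99) and Pde7a (0.986) for Ces1d, and Rasgef1b (0.991), Uchl5 (0.986) and Timp3 (0.985) for Fmo2. For Fmo1 they were Fgfr3 (0.995), Lamb3 (0.99) and Shld1 (0.989). Fmo5 was closest to Wbp4 (0.946), Traf3ip1 (0.927) and Nemp2 (0.926), and Fmo4 to Pde11a (0.972), Selenoi (0.961) and Rab11fip2 (0.96). The hearts share their genotype split, library and depth across all these genes. Each r was picked as one of the highest among 12212 genes over 7 hearts, and no chance level was computed. Even Fmo4, with 4 to 34 counts per heart, reached 0.972.

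The genes are related, so the sequences were checked for stretches that could take each other's reads. Cut into all words of 76 bases, the read length on the labels, the longest coding transcripts of Fmo1, Fmo2, Fmo4, Fmo5 and Ces1d had 2313, 3991, 2608, 5122 and 1929 words. Of these, 0 occurred in a transcript of any other gene of GENCODE M21. Over aligned coding bases Fmo1 and Fmo2 were 62.0% identical, Fmo1 and Fmo4 61.5%, Fmo1 and Fmo5 60.5%, Fmo2 and Fmo4 63.6%, Fmo2 and Fmo5 63.0%, and Fmo4 and Fmo5 63.2%. The adjacent genes Fmo1 and Fmo2 were thus about as far apart in coding sequence as either was from Fmo5 on another chromosome. Ces1d was closer to its own cluster, with 81.5% identity to Ces1g, 80.3% to Ces1e and 77.9% to Ces1f.

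What Fmo2, Fmo4 and Fmo5 share is shown by the first 90 coding bases, which hold the glycine codons of the FAD-binding loop. The sequences are from GENCODE M21 transcripts on GRCm38, 5′ to 3′ on the coding strand, and the capitals mark 18 bases, the 6 codons from the first to the last of these glycine codons. They lie at chr1:162898216-162898305, minus strand, exon 2 for Fmo2, at chr1:162809832-162809921, minus strand, exon 3 for Fmo4 and at chr3:97629061-97629150, plus strand, exon 2 for Fmo5. The capitals cover codons 9 to 14 of Fmo2 and Fmo4 and codons 10 to 15 of Fmo5. Among the capitals, 3 bases differ between Fmo2 and Fmo4, 5 between Fmo2 and Fmo5 and 6 between Fmo4 and Fmo5. Over the 90 bases, compared position by position, 16 differ between Fmo2 and Fmo4, 58 between Fmo2 and Fmo5 and 55 between Fmo4 and Fmo5. The capitals of Fmo5 begin at a later codon, so its bases are out of step in that count.
Fmo2: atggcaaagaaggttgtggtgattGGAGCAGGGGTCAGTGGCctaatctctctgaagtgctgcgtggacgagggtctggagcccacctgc
Fmo4: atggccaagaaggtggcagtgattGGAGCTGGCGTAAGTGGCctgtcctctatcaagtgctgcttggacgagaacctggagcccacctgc
Fmo5: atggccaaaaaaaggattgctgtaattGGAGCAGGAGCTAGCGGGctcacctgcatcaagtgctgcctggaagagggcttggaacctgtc

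For the carboxylesterases the stretch around the catalytic serine shows how alike Ces1d and its neighbours are where only Ces1d is abundant in these hearts. The 75 coding bases below span exons 5 and 6 of each gene on the minus strand of GRCm38, at chr8:93186110-93187808 for Ces1d, chr8:93215142-93217564 for Ces1e and chr8:93268083-93270039 for Ces1f, with the intron left out. The capitals mark 15 bases, the 5 codons with the serine codon in the middle, which is codon 221 of Ces1d and Ces1f and codon 222 of Ces1e. The capitals are identical in the 3 genes, and over the 75 bases 8 differ between Ces1d and Ces1e, 10 between Ces1d and Ces1f and 9 between Ces1e and Ces1f.
Ces1d: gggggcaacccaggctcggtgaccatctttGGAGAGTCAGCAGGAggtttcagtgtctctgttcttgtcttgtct
Ces1e: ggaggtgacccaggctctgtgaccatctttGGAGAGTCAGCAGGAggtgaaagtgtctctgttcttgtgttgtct
Ces1f: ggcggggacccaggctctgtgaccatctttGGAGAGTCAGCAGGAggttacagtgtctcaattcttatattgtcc

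RefSeq promoter windows of 300 bases around a transcript start (GRCm38.p6) were found for 3 of the 5 genes, Fmo2 with a pair of windows, Fmo4 and Fmo5. Fmo1 and Ces1d had none. Exact letters were searched on both strands, and shares refer to all 32851 windows of the table. TATAAA (in 13.6% of windows) was found in the Fmo5 window, CCAAT (37.4%) in those of Fmo5 and Fmo4, and AGGTCA, the core bound by nuclear receptors (16.3%), in that of Fmo4 and in the Fmo2 window at chr1:162898444-162898743, minus strand. The same Fmo2 window held AGAACA, a core of glucocorticoid response elements (19.0%), while the Fmo2 window at chr1:162898709-162899008 held none of the letters searched. CACGTG (7.15%), TTATGTAA (0.938%) and TGACNNNGC (12.4%) were in none of these windows, which says only that these letters are not there. A match is a description and not evidence of a bound factor.

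Around the 5 genes, 9 pathway lists with 206 other genes were read from the same fit. Of these genes 155 were tested, and 6 were called higher and 4 lower in A178D hearts. Over all 13894 tested genes 1.04% were called higher and 1.31% lower. These lists, and the marker, clock and glucocorticoid lists further below, were chosen with earlier results of these data known. All lists are therefore given as counts and medians, with no test of a list. Without WT heart 3 only 1 of the pathway genes was called, and without WT heart 4 there were 3. There were 2 without A178D heart 1, 4 without A178D heart 3 and 15 without WT heart 1. Calls over all tested genes moved as well, from 145 higher and 182 lower to 22 and 31 without WT heart 3. They were 40 and 42 without WT heart 4 and 40 and 50 without A178D heart 1. Without A178D heart 3 they were 78 and 112, and without WT heart 1 they were 215 and 238.

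In the cytochrome P450 system, the other large group of oxygenases of the endoplasmic reticulum, 28 genes were tested, with a median log2 fold change of -0.03 beside 0.002 over all tested genes (-0.06 without A178D heart 3, 0.00 without A178D heart 4, -0.08 with offsets for length and GC content). Cyp4b1 fell from 36.7 ± 2.91 CPM in WT (SD, n = 3) to 27.9 ± 2.27 CPM in A178D hearts (SD, n = 4), with a log2 fold change of -0.40 (SE 0.09, adjusted p = 0.034), lower in 4 of 4 A178D hearts than in any WT heart. Cyp4f16 rose from 5.05 ± 0.229 to 7.25 ± 0.459 CPM (0.52, SE 0.12, adjusted p = 0.0437), higher in 4 of 4. Neither call was kept in every fit. The Cyp4b1 call ended without WT heart 3, WT heart 4 or A178D heart 1, 2 or 3, with adjusted p from 0.0189 to 0.187 over the 7 fits. Each of these omissions also lowered the number called over all tested genes. The Cyp4f16 call held only without A178D heart 4, with adjusted p from 0.047 to 0.187. It also ended with replicate number as a block (adjusted p = 0.121). Por, which passes electrons from NADPH to these enzymes, averaged 61.2 CPM in WT and 67.5 CPM in A178D hearts and was not called.

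Among conjugating enzymes, which attach polar groups to the products of such oxidations, 30 were tested, with a median of 0.05 (-0.02 with offsets for length and GC content), and 2 were called, both higher. That direction was not kept in every fit, since 2 were higher and 3 lower without WT heart 1, and likewise with offsets for length and GC content, 3 higher and 2 lower with no filter on low counts, 4 higher and 1 lower with DESeq2, 3 higher and 1 lower with the replicate block, and 0 were called without WT heart 3. Among the 2 genes Gsto1, a glutathione transferase, rose from 161 ± 3.53 CPM in WT (SD, n = 3) to 202 ± 11.4 CPM in A178D hearts (SD, n = 4), a log2 fold change of 0.33 (SE 0.07, adjusted p = 0.0231), higher in 4 of 4 A178D hearts than in any WT heart. Its call ended without WT heart 3, WT heart 4, A178D heart 1 or A178D heart 3, with adjusted p from 0.0219 to 0.131, and with replicate number as a block (adjusted p = 0.0562).

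Of 27 tested genes for other oxidoreductases and hydrolases of small molecules, with a median of 0.03 (-0.01 without WT heart 1, 0.01 without A178D heart 4), 2 fell. Xdh, a flavoprotein that oxidises purines to uric acid, went from 174 ± 27.0 CPM in WT (SD, n = 3) to 124 ± 11.3 CPM in A178D hearts (SD, n = 4), a log2 fold change of -0.48 (SE 0.10, adjusted p = 0.0255), lower in 4 of 4. Without WT heart 3, WT heart 4, A178D heart 1 or A178D heart 3 it was not called, with adjusted p from 0.00201 to 0.154. Adh1, an alcohol dehydrogenase, went from 23.9 ± 9.08 to 12.0 ± 2.38 CPM (-1.0, SE 0.22, adjusted p = 0.0328), but WT heart 1 at 13.6 CPM lay among the A178D hearts, which had 8.84 to 14.0 CPM. Its call ended with limma-voom (adjusted p = 0.0657), with DESeq2 (0.0583) and without WT heart 3, WT heart 4, A178D heart 1, A178D heart 2 or A178D heart 3, with adjusted p from 0.000369 to 0.2 over the 7 fits. WT heart 1 was thus the lowest WT heart for Ces1d, Fmo1, Fmo2, Xdh and Adh1.

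Ces1d acts on neutral lipid in other tissues, and 27 genes for other lipid hydrolases and lipid droplet proteins were tested, with a median of 0.09. The 3 called genes rose, while of the other perilipin genes Plin4 averaged 301 CPM in WT and 248 CPM in A178D hearts (log2 fold change -0.28, SE 0.10), Plin3 190 and 198 CPM and Plin1 0.193 and 0.247 CPM, none of them called. Plin2 went from 65.1 ± 8.62 CPM in WT (SD, n = 3) to 90.8 ± 4.14 CPM in A178D hearts (SD, n = 4), a log2 fold change of 0.48 (SE 0.09, adjusted p = 0.0144). Plin5 went from 154 ± 19.4 to 210 ± 9.5 CPM (0.45, SE 0.09, adjusted p = 0.0162), and Cidea from 30.1 ± 3.09 to 40.6 ± 1.09 CPM (0.43, SE 0.08, adjusted p = 0.0177). Each was higher in 4 of 4 A178D hearts than in any WT heart. Without WT heart 3 none of them was called, with adjusted p of 0.089 for Plin2 and 0.0872 for Plin5. Plin5 also missed the threshold without A178D heart 1 (0.0562), and Cidea without WT heart 4, A178D heart 1 or A178D heart 3, with adjusted p up to 0.115, and with offsets for length and GC content (0.0776). Lpl, the most abundant gene of the list, averaged 5380 CPM in WT and 5020 CPM in A178D hearts and was not called.

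Taurine synthesis and transport, the pathway of Fmo1, had 6 tested genes with a median of -0.02, between -0.05 (without WT heart 3 or A178D heart 1) and 0.00 (without A178D heart 3) with a heart left out and -0.07 with offsets for length and GC content. None was called by edgeR, DESeq2 or limma-voom, and 1 had an unadjusted p under 0.05 by edgeR, Cdo1 with 0.915 CPM in WT and 0.455 CPM in A178D hearts (log2 fold change -0.99, SE 0.42). Slc6a6, the taurine transporter, averaged 227 ± 19.7 CPM in WT (SD, n = 3) and 234 ± 13.1 CPM in A178D hearts (SD, n = 4). For flavin and NADPH supply all 15 genes were tested, with a median of 0.00, between -0.02 (without WT heart 1) and 0.03 (without WT heart 4) with a heart left out. None was called by the 3 tools, and 1, Me3, had an unadjusted p under 0.05 by edgeR, at 126 and 113 CPM.

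Of 18 tested nuclear receptors and partners that control such enzymes, with a median of -0.15 (-0.06 without WT heart 1, -0.09 without A178D heart 4), only Ppara was called. It is the receptor that switches on fatty acid oxidation, and it fell from 145 ± 8.07 CPM in WT (SD, n = 3) to 112 ± 5.7 CPM in A178D hearts (SD, n = 4), with a log2 fold change of -0.38 (SE 0.07, adjusted p = 0.0144), lower in 4 of 4. Its adjusted p was 0.0772 without WT heart 4 and 0.0566 without A178D heart 1. Nr1i2, the pregnane X receptor, had no count in any heart. Nr1i3, the constitutive androstane receptor, averaged 1.41 CPM in WT and 1.23 CPM in A178D hearts and was not called.

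Markers of cell types were set beside the 5 genes because monooxygenases and carboxylesterases differ widely between tissues. Between the genotypes, the smooth muscle and pericyte list moved in the same direction as Ces1d, Fmo2 and Fmo1. All 12 of its genes were tested and below 0, with a median log2 fold change of -0.36, and 5 fell: Acta2 (-0.59, SE 0.09, adjusted p = 0.00587), Tagln (-0.62, SE 0.10, adjusted p = 0.0077), Myh11 (-0.67, SE 0.12, adjusted p = 0.0146), Cnn1 (-0.82, SE 0.18, adjusted p = 0.0337) and Lmod1 (-0.70, SE 0.16, adjusted p = 0.0427). The summed level of the list was 1720, 1750 and 1670 CPM in WT hearts 1, 3 and 4 and 1310, 1440, 1520 and 1280 CPM in A178D hearts 1 to 4. Its most abundant gene, Abcc9, averaged 599 and 542 CPM and was not called, and no gene of the list was at 0. Acta2 and Tagln were called whichever heart was left out, while adjusted p reached 0.0547 for Myh11, 0.109 for Cnn1 and 0.142 for Lmod1, and 0.0617 for Cnn1 with replicate number as a block. The number called was 3 without WT heart 1, 2 without WT heart 3, 4 without WT heart 4, 3 without A178D heart 1, 4 without A178D heart 2, 3 without A178D heart 3 and 5 without A178D heart 4. With all hearts it was 8 with DESeq2, 7 with offsets for length and GC content, 6 with no filter and 4 with the replicate block. The part of these cells in the lower levels of Ces1d, Fmo2 and Fmo1 was not tested.

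In the fat cell list 9 of 13 genes were tested, with a median of 0.01 that lay between -0.06 (without WT heart 3 or A178D heart 4) and 0.10 (without WT heart 4 or A178D heart 1) with a heart left out, and Cidea, described above, was the called gene. The list summed to 563, 589 and 667 CPM in WT hearts 1, 3 and 4 and to 633, 622, 678 and 786 CPM in A178D hearts 1 to 4. Fabp4, which heart endothelium also expresses, held most of it at 514 CPM in WT and 576 CPM in A178D hearts. Other genes of the list were near 0, with Adipoq at 0.235 and 0.189 CPM and Lep at 0.0943 and 0.00 CPM. In the hepatocyte list 5 of 11 genes were tested, with a median of -0.33, none was called by edgeR, DESeq2 or limma-voom, and 2 had an unadjusted p under 0.05 by edgeR, Trf (0.20, SE 0.08) and Ahsg (0.82, SE 0.32), both higher. The median had no steady sign, at 0.01 without WT heart 4, -0.02 without WT heart 3, -0.04 without A178D heart 1, -0.53 without WT heart 1, -0.52 without A178D heart 4, -0.15 with halved counts and 0.20 with 10 or more counts required in every library. Alb stood at 0.143 and 0.0922 CPM and Fgb at 0, and the most abundant gene was Trf at 38.1 and 43.8 CPM. The list summed to 37.8, 44.5 and 41.9 CPM in WT hearts 1, 3 and 4 and to 48.4, 48.6, 43.5 and 49.0 CPM in A178D hearts 1 to 4. In the fat cell list Fabp4 was not the only gene expressed, with Lipe at 48.3 and 50.1 CPM, Cidea at 30.1 and 40.6 CPM and Pparg at 11.8 and 11.9 CPM. The part of either cell type in the level of Ces1d was not tested.

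The endothelial list had a median of -0.07 over 13 tested genes (-0.04 without WT heart 1), and Flt1, a receptor for vascular growth factors, fell (log2 fold change -0.35, SE 0.07, adjusted p = 0.02). That call ended without WT heart 3, WT heart 4, A178D heart 1 or A178D heart 2, with adjusted p from 0.0212 to 0.102, and with replicate number as a block (0.0728). Without WT heart 1, 2 genes of the list were called lower and 1 higher. The list summed to 2210, 2330 and 2190 CPM in WT hearts 1, 3 and 4 and to 2010, 1910, 2110 and 2100 CPM in A178D hearts 1 to 4, and its most abundant gene, Aqp1, averaged 586 and 426 CPM. The fibroblast list had a median of 0.11 over 14 genes (0.05 without WT heart 1, 0.06 without WT heart 4 and 0.20 without WT heart 3), and Col3a1 rose (0.62, SE 0.14, adjusted p = 0.0317), a call that ended without WT heart 3, A178D heart 1, A178D heart 2 or A178D heart 3, with adjusted p from 0.00318 to 0.113. Fibroblast markers summed to 2750, 3080 and 2610 CPM in WT hearts 1, 3 and 4 and to 3190, 3080, 2980 and 3150 CPM in A178D hearts 1 to 4, with Gsn the most abundant at 1370 and 1470 CPM. No gene of either list was at 0, and the part of both cell types in the result was not tested.

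The remaining marker lists were as follows. Of 13 cardiomyocyte markers, with a median of 0.02 (-0.02 without WT heart 1, 0.06 without A178D heart 2, -0.03 with offsets for length and GC content), Mybpc3 rose (0.30, SE 0.06, adjusted p = 0.023). That call ended without WT heart 3, WT heart 4, A178D heart 1 or A178D heart 3, with adjusted p up to 0.12, and with replicate number as a block (0.0574). Of 4 tested atrial markers, with a median of 0.34, Nppa, which ventricle under load also makes, rose from 182 ± 69.9 CPM in WT (SD, n = 3) to 451 ± 128 CPM in A178D hearts (SD, n = 4), with a log2 fold change of 1.31 (SE 0.24, adjusted p = 0.0146). Its call ended without WT heart 3, WT heart 4 or A178D heart 1, with adjusted p up to 0.086. The 12 macrophage markers had a median of 0.20 (0.11 without WT heart 1, 0.31 without WT heart 3) and Csf1r as the most abundant gene, at 60.4 and 64.4 CPM. None was called by edgeR, where 6 had an unadjusted p under 0.05, or by limma-voom, while DESeq2 called 1 higher and 1 lower, and edgeR called 2 lower without WT heart 1 and 1 higher with no filter or with the replicate block. Of 6 epicardial and mesothelial markers only Wt1 was tested (-0.29, SE 0.16, and -0.15 without WT heart 1), and it was not called by edgeR, where its unadjusted p was above 0.05, by DESeq2 or by limma-voom. None of the 4 Y-linked genes, with a median of -0.10 that was -0.18 without A178D heart 1, -0.01 without WT heart 4 and 0.02 without A178D heart 4, was called by any of these tools or had an unadjusted p under 0.05 by edgeR.

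Enzymes of this kind can vary over the day and with steroid hormones, so clock genes and glucocorticoid-responsive genes were read as well. Of 19 clock genes, with a median of -0.22 (-0.11 without A178D heart 1), Arntl rose (log2 fold change 1.77, SE 0.31, adjusted p = 0.0115) and 5 fell: Per2 (-0.88, SE 0.14, adjusted p = 0.0062), Tef (-0.39, SE 0.07, adjusted p = 0.016), Per3 (-0.47, SE 0.09, adjusted p = 0.0172), Hlf (-0.42, SE 0.09, adjusted p = 0.0306) and Cry1 (-0.51, SE 0.11, adjusted p = 0.0328). Tef and Hlf encode clock-controlled transcription factors of the PAR bZIP family, and the other gene of that family on the list, Dbp, averaged 124 CPM in both genotypes (log2 fold change 0.00, SE 0.14) and was not called. These calls were not kept in every fit: 0 of the 19 genes were called without WT heart 3 and 1 without WT heart 4. Without A178D heart 1, 1 was called higher and 1 lower. Calls over all tested genes fell in the same 3 fits, from 145 higher and 182 lower to 22 and 31, 40 and 42, and 40 and 50. The median of the clock genes was -0.19, -0.22 and -0.11 in these fits. Cry1 also lost its call without A178D heart 3, with adjusted p up to 0.187 over the fits that left out a heart. The clock genes summed to 1480, 1480 and 1510 CPM in WT hearts 1, 3 and 4 and to 1220, 1340, 1430 and 1380 CPM in A178D hearts 1 to 4, with Tef the most abundant at 351 and 268 CPM. The time of day at which the hearts were taken is not on the labels, and its part in the result was not tested.

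Of 15 glucocorticoid-responsive genes, with a median of -0.19, 1 fell and 2 rose, while 4 were lower and 1 higher without WT heart 1. The median was -0.01 without WT heart 3 and -0.05 without A178D heart 1. Zbtb16, a transcription factor gene, had 52.2, 79.4 and 89.1 CPM in WT hearts 1, 3 and 4 and 27.1, 31.2, 28.7 and 39.6 CPM in A178D hearts 1 to 4, with WT heart 1 again the lowest of its group. Its log2 fold change was -1.22 (SE 0.16, adjusted p = 0.00224), and it was called whichever heart was left out. Cdkn1a, a cell cycle inhibitor gene, rose (0.54, SE 0.10, adjusted p = 0.0146), but not without WT heart 3, WT heart 4 or A178D heart 1, where adjusted p reached 0.0951. Lcn2, which encodes a siderophore-binding protein, rose (0.93, SE 0.22, adjusted p = 0.0437). That call ended with limma-voom, with the replicate block and with offsets for length and GC content, where adjusted p was 0.0599, 0.0608 and 0.0598. It also ended without WT heart 1, WT heart 3, WT heart 4, A178D heart 1 or A178D heart 3, with adjusted p up to 0.175. The part of circulating steroid in the levels of the 5 genes was not tested.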

How the data were processed

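Stranded poly(A) libraries from the left ventricle of 3 WT and 4 A178D mice were sequenced, each mouse as 1 library. The deposited values are raw counts of Ensembl genes, and a signal, which the authors made by dividing counts by 1 DESeq2 size factor per library and which served only to read those factors. The submitters' processing notes name bcl2fastq 2.18.0.12, HISAT2 2.1.0, SAMtools 1.6, DESeq2 1.26.0 and GRCm38. The counting program and annotation are not given in the sources used here. Of 21257 entries, 442 in 219 sets shared their counts in every library, and 223 of these were removed, which with repeated entries left 20927. None of the 5 genes was among them. Odd numbers made up 17.6 to 20.3% of counts from 1 to 20. No column was left unmapped (0), and 300 entries had no name. The 13 mitochondrially encoded genes had no counts.

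A178D was compared with WT by edgeR 4.0.16 in R 4.3.3 (TMM, glmQLFit, glmQLFTest, no covariate) in genes where 3 or more libraries held 10 or more counts, with Benjamini-Hochberg adjustment over all 13894 and a threshold of 0.05. The SE is the absolute log2 fold change divided by the square root of F. CPM uses TMM library sizes. The step was also run on simulated data with changes larger than those of the 5 genes. The outcome of that run is not given here. The members and the 21 gene lists were chosen with earlier results of these data known. Named genes were taken from the 5 members, other family genes with counts, up to 10 called genes of each list, the 3 most similar genes of each member, adjacent genes, the most abundant and the near-absent markers, and Ttn. Por, Lpl, Plin1, Plin3, Plin4, Dbp, Slc6a6, Cdo1, Me3, Nr1i2, Nr1i3, Ahsg, Lipe, Pparg, Stard10, Dkk3, Myl4 and the Y-linked genes were chosen after their values were seen. Alternatives were DESeq2 1.42.0, limma-voom (limma 3.58.1), DESeq2 size factors in edgeR, no filter, 10 or more counts required in every library, replicate number as a block, the table as deposited, halved counts, offsets for length and GC content, an adjusted p under 0.01, each library left out, and total exon length.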

Additional observations from a re-analysis of the deposited data

Results flagged for a closer look

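Among the 33 groups of 4 A178D hearts examined, 3 held a heart whose gap to the other 3 was wide beside their own spread. By chance about 1 in 20 groups would hold such a heart. The gap need not be large in CPM. A178D heart 2 had 324 CPM of Col3a1, with 303 to 306 CPM in the others. A178D heart 1 had 7.93 CPM of Cyp4f16, with 6.93 to 7.07 CPM in the others. A178D heart 1 had 107 CPM of Xdh, with 128 to 131 CPM in the others. No heart stood apart in this way for any of the 5 genes, and the groups of 3 WT hearts were too small to examine.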

How the results depend on the processing

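The log2 fold changes of Ces1d and Fmo2 were below 0 in every alternative and with every heart left out, a direction that the choice of these genes fixes. The number of genes called higher and lower, 145 and 182, became 289 and 377 with DESeq2, 219 and 294 with offsets for length and GC content and 24 and 40 at an adjusted p under 0.01, and it ran from 22 to 215 higher and from 31 to 238 lower when 1 heart was left out, lowest without WT heart 3. The 10 called genes of the pathway lists became 16 with DESeq2 and 1 at an adjusted p under 0.01, and 1 to 15 with a heart left out. Fmo1 did not pass the threshold with replicate number as a block, at a log2 fold change of -0.40, and its estimates with a heart left out ran from -0.54 to -0.37. For Fmo5 the sign turned with the block (0.01), with the offsets (0.02) and without A178D heart 2 (0.01), and the fits with a heart left out ran from -0.08 to 0.01. Per kilobase of total exon length the WT levels moved to 10.4 for Fmo1, 10.7 for Fmo2 and 5.51 for Fmo5. Fmo4 had no value with at least 10 counts in every library. The cause of these shifts was not tested beyond the fewer hearts or the other length used. The block assumes that equal replicate numbers pair, but residual correlations of the same-numbered hearts were 0.003, -0.040 and -0.042. With it, 124 genes were called higher and 147 lower. The number of hearts limits all values, and low counts limit Fmo4 and the genes near 0.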
